A study of Mus musculus with 6 samples.

Results

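The 9 genes described here encode parts of the machinery that fixes epithelial cells to their matrix: the laminin chains Lama1, Lama3, Lama5 and Lamb3, the transmembrane collagen Col17a1, the integrin subunits Itga6, Itgb4 and Itgb6, and the cytolinker Plec. They were chosen by gene symbol, as laminin chains and hemidesmosome or integrin genes known to anchor ameloblasts, the enamel-forming epithelial cells. All 9 were found among the 20161 genes of the deposited normalized table, and 9 of 9 passed the filter on low counts. RNA came from first molar tooth germs of C57BL/6 mice at postnatal day 7, from 3 wild-type (WT) libraries and 3 libraries of Gpr115-/- littermates (Gpr115-KO), with a knockout of the adhesion G protein-coupled receptor Gpr115 (gene Adgrf4). The study title names enamel mineralization as the process under study, and the comparison asks which transcripts of the tooth germ differ without the receptor. The labels do not give the deleted part of the gene, or whether a library held 1 animal or pooled germs, so p-values rest on the spread between these libraries, which may be technical.

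Laminins are cross-shaped trimers of an alpha, a beta and a gamma chain that build the basement membrane. The trimer that holds Lama3 and Lamb3 lies under stratified epithelia, where it is bound by the integrin made of Itga6 and Itgb4; this integrin, Col17a1, Plec and the related linker Dst form the hemidesmosome, which ties the keratin filaments inside the cell to the laminin outside. Lama1 and Lama5 belong to other trimers, built on Lamb1 or Lamb2 and Lamc1, of embryonic and of more general basement membranes. Itgb6 pairs with Itgav in an epithelial integrin that binds and activates latent transforming growth factor beta. Inherited loss of several of these proteins gives skin blistering with enamel defects, and loss of Itgb6 gives amelogenesis imperfecta.

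The RefSeq promoter table of build GRCm38.p6 held 4 of the 9 genes, Lamb3, Col17a1, Itgb6 and Lama5. Of these, 3 are printed. Col17a1 was the gene of the 9 whose Gpr115-KO libraries all lay above WT. Lamb3 encodes a chain of the laminin that Col17a1 binds, and Itgb6 had a fitted fold change opposite in sign to that of Col17a1. Each sequence runs 5′ to 3′ on the gene's strand from 250 bases before the RefSeq start up to the first annotated exon of the gene. The stretches are chr19:47692095-47692292 on the minus strand for Col17a1, chr1:193301744-193301992 on the plus strand for Lamb3 and chr2:60722644-60722853 on the minus strand for Itgb6. The Lamb3 stretch lies inside the annotated span of the gene, which has longer transcripts that begin upstream. Capitals mark matches to a TATA box (TATAAA) on either strand.
Col17a1: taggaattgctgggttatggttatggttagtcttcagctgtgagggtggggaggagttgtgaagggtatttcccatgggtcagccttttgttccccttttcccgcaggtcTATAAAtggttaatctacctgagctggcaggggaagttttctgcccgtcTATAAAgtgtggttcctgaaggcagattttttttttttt
Lamb3: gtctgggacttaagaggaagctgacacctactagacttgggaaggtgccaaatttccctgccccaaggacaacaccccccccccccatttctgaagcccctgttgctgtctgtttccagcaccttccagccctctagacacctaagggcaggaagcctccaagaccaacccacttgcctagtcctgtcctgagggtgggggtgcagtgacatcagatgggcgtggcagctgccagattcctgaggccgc
Itgb6: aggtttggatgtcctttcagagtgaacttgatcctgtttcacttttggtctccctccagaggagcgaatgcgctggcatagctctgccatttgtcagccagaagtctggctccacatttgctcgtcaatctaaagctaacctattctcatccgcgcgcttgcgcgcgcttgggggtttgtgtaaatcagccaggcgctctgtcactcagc
The Col17a1 stretch held 2 matches to TATAAA, a motif present in 9.43% of 27025 promoter windows of that length (198 bases). The Lamb3 and Itgb6 stretches held none; of windows as long as theirs, 13.0% and 9.92% have the motif. The AP-1 motif TGANTCA, present in 5.67% to 6.86% of windows of these lengths, was in none of the 3. Nor was the CCAAT box, spelled by its name and present in 28.5% to 34.4%. The GC box GGGCGG, present in 24.2% to 32.8%, was also missing from them. The Lama5 stretch, which is not printed, held 4 matches to the GC box and none to the other motifs. Of windows of its length (250 bases), 32.9% have the GC box. Both strands were searched, and a missing match says only that these letters are not in the window.

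The libraries held 8317302 to 11122821 counts, and 1 count was worth 0.0904 to 0.114 CPM (read counts scaled to the library total, here with the trimmed mean of M-values, TMM). The targeted gene Adgrf4 read 66.9, 62.3 and 67.3 CPM (WT) against 39.1, 20.6 and 27.4 CPM (Gpr115-KO) (log2 fold change −1.18, SE 0.21, edgeR adjusted p = 0.0889), so its libraries were separate but the gene did not pass the 0.05 threshold. The tooth germ label was borne out by markers: the summed level of 7 ameloblast genes was 112700 to 145700 CPM (WT) against 96110 to 203000 CPM (Gpr115-KO), and no ameloblast or odontoblast marker was at 0 in any library. In bulk samples such as these, fewer cells of a type and less RNA per cell cannot be told apart. Summed marker levels overlapped between the genotypes for 9 of 10 cell types, the exception being osteoclasts, at 45.2 to 55.9 CPM (WT) against 58.1 to 81.0 CPM (Gpr115-KO). Keratinizing oral epithelium differed between libraries of both genotypes, at 159, 44.7 and 133 CPM (WT) against 308, 47.1 and 58.6 CPM (Gpr115-KO), and skeletal muscle stood at 235 CPM in replicate 2 of Gpr115-KO and at 24.9 to 65.5 CPM elsewhere. Erythroid markers summed to 138 to 158 CPM (WT) against 157 to 391 CPM (Gpr115-KO), and all 5 tested had an unadjusted p under 0.05, higher in Gpr115-KO (log2 fold changes 0.67 to 1.47, edgeR adjusted p from 0.196 to 0.292). Of 6 leukocyte markers, 3 were higher without overlap, the neutrophil genes S100a9 (1.81, SE 0.48), Mpo (1.498, SE 0.33) and Ngp (0.64, SE 0.31), and all 6 muscle markers had fold changes above 0. No marker of these 3 cell types passed the adjusted threshold. A listed marker of Schwann cells, osteoclasts or erythroid cells was at 0 in some libraries. The part of these cell types in the results below was not tested.

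Of the 9 genes, only Lama1 passed the test, and it fell. In edgeR's quasi-likelihood test 0.15% of all 16011 genes tested were called at an adjusted p under 0.05, with 0.0375% called higher and 0.112% called lower. Plec, Itgb6, Lama3 and Itga6 had fitted log2 fold changes of −0.64 to −0.33, and Col17a1, Lamb3, Lama5 and Itgb4 of 0.13 to 0.41, none of them past the threshold (adjusted p from 0.223 to 0.916). The median log2 fold change of the 9 was −0.33, against 0.01 over all genes tested, with 4 above 0 and 5 below, where 51.3% and 48.7% of all genes lay. At an unadjusted p under 0.05 stood 1 higher gene (Col17a1) and 2 lower genes (Lama1 and Plec), against 4.85% and 7.48% of all genes. The WT and Gpr115-KO libraries did not overlap for 3 of the 9, Lama1, Plec and Col17a1, where 17.5% of all genes tested did not overlap, 8.55% higher and 8.99% lower.

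**Figure D1:**
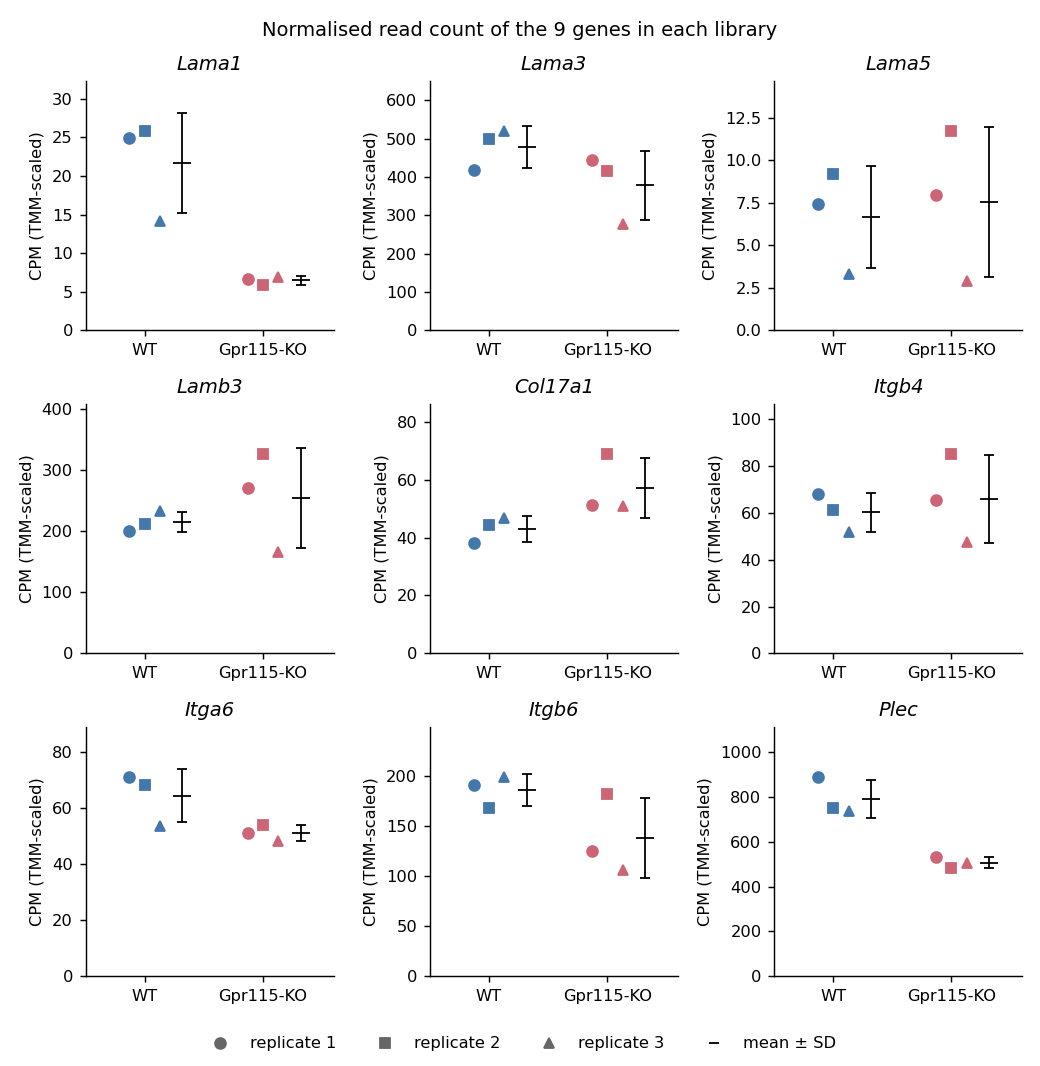
Normalised read count (CPM, TMM-scaled, linear axis from 0) of the 9 genes in each library, with replicate numbers as symbols and the mean ± SD beside them (n = 3 per genotype). The Gpr115-KO values of Lama1 (5.86 to 6.93 CPM) and Plec (485 to 531 CPM) all lie below WT, those of Col17a1 (51.0 to 69.0 CPM) all lie above it, and the other genes overlap.

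Lama1 encodes the alpha chain of the laminin that is typical of embryonic basement membranes. Lama1 (ENSMUSG00000032796) lies on the plus strand of chromosome 17, 67697259 to 67822647 on GRCm38. It read 24.9, 25.8 and 14.2 CPM (WT) against 6.70, 5.86 and 6.93 CPM (Gpr115-KO), from 275, 228 and 140 counts and 59, 55 and 76 counts. The Gpr115-KO libraries lay close together and all below the WT library of the lowest level, replicate 3. The mean went from 21.6 ± 6.46 CPM to 6.50 ± 0.563 CPM (SD, n = 3 each), which is 30.0% of WT; the log2 fold change was −1.73, its SE 0.26 and the edgeR adjusted p 0.0274. Leaving out WT replicate 3 kept the call, and leaving out any of the other libraries lost it (edgeR adjusted p from 0.0611 to 0.154), as did library totals alone (0.0859) and limma-voom (0.0860). It was kept, at −1.58 (edgeR adjusted p = 0.0276), when the dependence on gene length described below was removed. Over 17 alternatives the log2 fold change of Lama1 was negative throughout and the adjusted p ran from 6.6e-09 to 0.154. The lowest came from the edgeR fit without a count filter. That fit called 135 genes higher and 365 lower of 29163 tested, against 6 and 18 of 16011 in the main fit.

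Lama1 shares its chromosome with Adgrf4, at a distance of 25.0 Mb, and chromosome 17 held 18 of the 24 genes called over the whole genome although it held 724 of the genes tested. Just 3 other genes within 1000 kb were tested, none was called, and the genotypes overlapped for each. Ptprm, encoding a receptor tyrosine phosphatase, lay 343 kb before Lama1, its start being the nearer edge, and had a log2 fold change of −0.16 (SE 0.22). Arhgap28, encoding a GTPase-activating protein, lay 20.1 kb beyond Lama1 on the opposite strand, its end being the nearer edge. It had 0.29 (SE 0.23), and the pseudogene Gm15974 had 0.08 (SE 0.28). In edgeR the adjusted p was 0.811, 0.634 and 0.935 in that order. The nearest other called gene of the chromosome was 15.9 Mb away, and no called gene lay beyond Lama1. Of 11657 genes compared, the profile most like that of Lama1 over the 6 libraries was that of Nrm, a nuclear envelope gene, at 33.7, 27.5 and 20.5 CPM (WT) against 6.82, 6.93 and 9.12 CPM (Gpr115-KO). The root mean square difference between these profiles, each centred on its own mean log2 CPM, was 0.182, against a spread of 0.877 for Lama1 itself. Nrm also lies on chromosome 17.

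Neither partner chain of Lama1 passed the test. Lamb1, the beta chain it is assembled with, read 144, 145 and 121 CPM (WT) against 108, 83.8 and 87.4 CPM (Gpr115-KO), with no overlap (log2 fold change −0.55, SE 0.16, edgeR adjusted p = 0.253). Lamc1, the gamma chain of the same trimer, overlapped, at 32.9 to 37.7 CPM (WT) against 34.3 to 39.4 CPM (Gpr115-KO) (0.08, SE 0.15). Lama5, the alpha chain of other basement membranes, was the lowest of the 9 genes per length in WT, and its coefficient of variation within a genotype was the highest of the 9, at 45.0% in WT and 58.7% in Gpr115-KO. Lama5 (ENSMUSG00000015647; chromosome 2, 180176373 to 180225859, minus strand) read 7.41, 9.18 and 3.34 CPM (WT) against 7.95, 11.7 and 2.92 CPM (Gpr115-KO). In each genotype replicate 3 was the lowest and replicate 2 the highest, and the fitted change was 0.17 on the log2 scale (SE 0.50, edgeR adjusted p = 0.916). It had 32 to 110 counts per library. Its sign depended on single libraries: the log2 fold change was −0.30 without Gpr115-KO replicate 2 and −0.15 without WT replicate 3.

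The other 2 laminin members belong to the anchoring trimer of epithelia. Lama3 (ENSMUSG00000024421; chromosome 18, 12333819 to 12583013, plus strand) encodes its alpha chain and read 417, 499 and 520 CPM (WT) against 443, 416 and 276 CPM (Gpr115-KO). Replicate 3 of Gpr115-KO was the lowest and the others lay at or near the WT range (log2 fold change −0.34, SE 0.21, edgeR adjusted p = 0.542). An antisense transcript, Gm29200, overlaps exons of Lama3, and the Nextera XT kit keeps no strand, so their shared reads cannot be told apart. Lamb3 (ENSMUSG00000026639; chromosome 1, 193207699 to 193343878, plus strand) encodes the beta chain and read 200.0, 212 and 232 CPM (WT) against 271, 326 and 166 CPM (Gpr115-KO). The Gpr115-KO libraries lay on both sides of the WT range (0.24, SE 0.23, edgeR adjusted p = 0.705).

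On levels per kilobase of exon, Lama3 and Lamb3 made up most of the alpha and of the beta chain transcripts in every library. Lama3 took 90.8% ± 2.85 of all alpha chain transcripts in WT and 92.6% ± 1.75 in Gpr115-KO (SD, n = 3 each). Lamb3 took 65.3% ± 2.78 and 73.2% ± 9.13 of the beta chains. The share of Lama1 was 5.86%, 5.16% and 2.85% (WT) against 1.57%, 1.47% and 2.52% (Gpr115-KO), without overlap. The share of Lamb1 was 30.7%, 29.0% and 23.8% (WT) against 19.5%, 14.1% and 22.4% (Gpr115-KO), again without overlap. These shares were not tested, and no rate of overlap over other genes was computed for them. Nor were they recomputed with the dependence on gene length described below removed. The exonic length is 9917 nt for Lamb1 and 6612 nt for Lamb3.

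**Figure D2:**
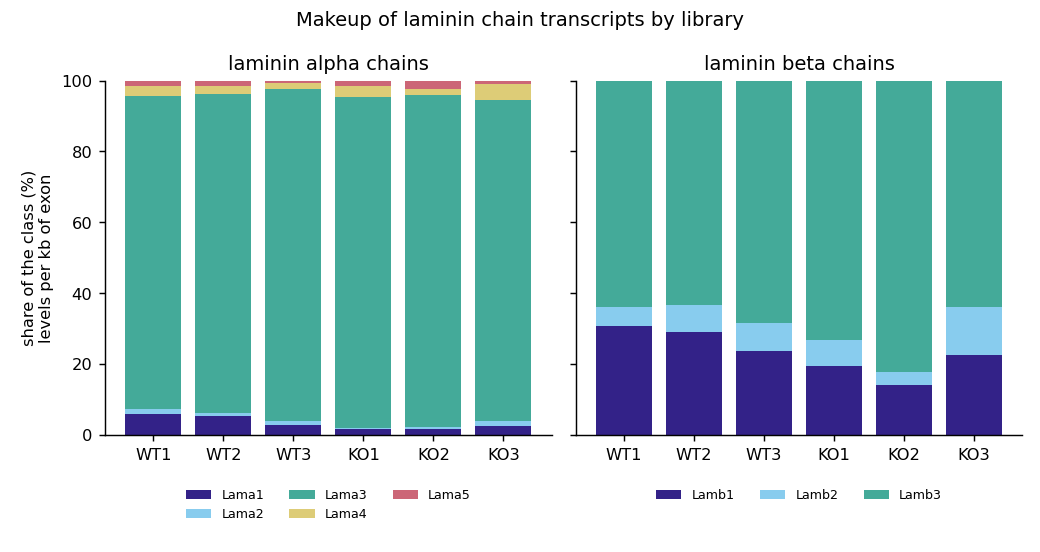
Share (%) of each laminin gene among all measured alpha or beta chain transcripts, from levels per kilobase of exon, in the 3 WT and 3 Gpr115-KO libraries. Lama3 and Lamb3 fill most of their bars in every library, and the segments of Lama1 and Lamb1 are shorter in all 3 Gpr115-KO bars than in the WT bars.

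Among the hemidesmosome genes, Plec and Col17a1 were separate between the genotypes, in opposite directions. Plec (ENSMUSG00000022565; chromosome 15, 76170974 to 76232574, minus strand) encodes plectin, which links the integrin to keratin filaments. It read 890, 749 and 736 CPM (WT) against 531, 485 and 505 CPM (Gpr115-KO). Every Gpr115-KO library was below every WT library, and the mean went from 792 ± 85.0 to 507 ± 23.4 CPM (SD, n = 3 each), which is 64.0% of WT. Its log2 fold change, −0.64 (SE 0.17), missed the threshold in edgeR (adjusted p = 0.223), although Plec passed in the DESeq2 Wald test (adjusted p = 0.00923), which called 1.52% of all genes tested. With the length dependence removed it stood at −0.39 (SE 0.16, edgeR adjusted p = 0.389). Exons of the genes Plec and Parp10 overlap, and 206 nt of transcript are shared between them. Plec is also a muscle gene. The summed muscle markers stood at 55.0, 46.7 and 38.6 CPM (WT) against 24.9, 235 and 65.5 CPM (Gpr115-KO). The part of muscle in the Plec values was not tested.

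Col17a1 (ENSMUSG00000025064; chromosome 19, 47646344 to 47692094, minus strand) encodes the collagen that spans the membrane at the hemidesmosome. It read 38.2, 44.2 and 46.7 CPM (WT) against 51.4, 69.0 and 51.0 CPM (Gpr115-KO). All Gpr115-KO libraries were above the WT libraries, replicate 2 by the widest margin, and the Gpr115-KO mean was 133% of WT. Its log2 fold change, 0.41 (SE 0.17), did not pass (edgeR adjusted p = 0.366), and was 0.25 without Gpr115-KO replicate 2.

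Neither subunit of the hemidesmosome integrin passed the test. Itgb4 (ENSMUSG00000020758; chromosome 11, 115974709 to 116008412, plus strand), the subunit with the long cytoplasmic tail that binds plectin, read 68.0, 61.1 and 51.7 CPM (WT) against 65.3, 85.3 and 47.4 CPM (Gpr115-KO). The genotypes overlapped (log2 fold change 0.13, SE 0.21, edgeR adjusted p = 0.844), and without Gpr115-KO replicate 2 the value was −0.10. Itga6 (ENSMUSG00000027111; chromosome 2, 71745616 to 71858416, plus strand), the alpha subunit, read 71.2, 68.3 and 53.7 CPM (WT) against 51.2, 53.9 and 48.3 CPM (Gpr115-KO). Its genotypes overlapped only by WT replicate 3, which was just below Gpr115-KO replicate 2 (−0.33, SE 0.16, edgeR adjusted p = 0.423). The Itga6 transcripts share stretches of 246 to 326 nt at 95% identity or more with 7 other annotated genes, and an exon of Itgb4 overlaps the noncoding B230344G16Rik on the opposite strand, so a part of their reads is uncertain.

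Itgb6 (ENSMUSG00000026971; chromosome 2, 60598292 to 60722643, minus strand) encodes the epithelial integrin subunit whose loss disturbs enamel. It read 191, 169 and 200 CPM (WT) against 126, 183 and 107 CPM (Gpr115-KO). Replicates 1 and 3 of Gpr115-KO were below all WT libraries and replicate 2 was within their range (log2 fold change −0.43, SE 0.21, edgeR adjusted p = 0.424). Without that library the value was −0.68 (edgeR adjusted p = 0.321). Its partner Itgav overlapped, at 47.5, 58.2 and 72.5 CPM (WT) against 49.3, 77.3 and 60.0 CPM (Gpr115-KO) (0.07, SE 0.21).

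Of 5 ratios between partners, computed per kilobase of exon within each library, 4 did not overlap between the genotypes, all lower in Gpr115-KO. Over all pairs of tested genes with a count in every library, 17.2% of ratios did not overlap; the ratios here share genes, with Itgb4 in 3 of them. Lama3 to Lamb3 was 1.28, 1.45 and 1.38 (WT) against 1.01, 0.786 and 1.02 (Gpr115-KO). On these lengths the alpha chain transcript exceeded the beta chain transcript in WT and was about level with it or below it in Gpr115-KO. Which chain stands higher depends on the exonic lengths used (10745 and 6612 nt, unions of all annotated exons), while the change between genotypes does not. Itga6 to Itgb4 was 0.830 ± 0.0342 in WT and 0.631 ± 0.152 in Gpr115-KO, and Itgb6 to Itgav 4.88 ± 1.06 and 3.37 ± 0.608 (SD, n = 3 each). Plec to Itgb4 was 5.07, 4.75 and 5.52 (WT) against 3.15, 2.20 and 4.12 (Gpr115-KO). Col17a1 to Itgb4 overlapped, at 0.851 ± 0.200 and 1.04 ± 0.188 (SD, n = 3 each). When the dependence on gene length was removed, an alternative chosen after seeing the data, 2 of the 5 ratios still did not overlap, Lama3 to Lamb3 and Itgb6 to Itgav. Itga6 to Itgb4 then overlapped by Gpr115-KO replicate 3 (0.808, against 0.796 to 0.856 in WT), and so did Plec to Itgb4 (4.47, against 4.43 to 5.50).

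**Figure D3:**
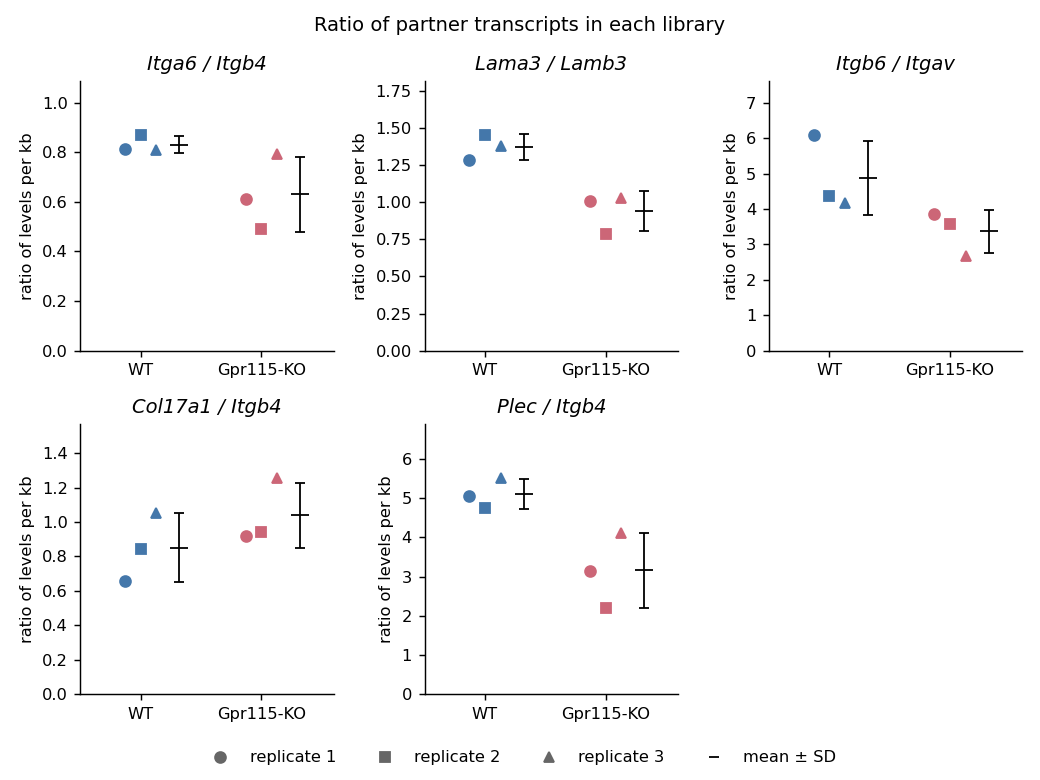
Ratio of the levels per kilobase of exon of 5 pairs of partner genes in each library (linear axes from 0), with replicate numbers as symbols and mean ± SD beside them (n = 3 per genotype). Lama3 to Lamb3 is 1.28 to 1.45 in WT and 0.786 to 1.02 in Gpr115-KO, and only Col17a1 to Itgb4 overlaps between the genotypes.

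Per kilobase of exon the 9 genes covered a wide range of WT levels. Lama3, at 44.5 ± 5.08 CPM per kilobase, and Plec, at 43.7 ± 4.69, were the highest and overlapped each other. Lamb3 followed at 32.5 ± 2.46 and Itgb6 at 26.2 ± 2.25, each apart from its neighbours in WT. Itgb4 (8.59 ± 1.17), Col17a1 (7.16 ± 0.732) and Itga6 (7.14 ± 1.04) formed a middle group in which neighbours overlapped. Lama1 stood at 2.23 ± 0.668 and Lama5 at 0.584 ± 0.263, both apart from their neighbours (SD, n = 3 throughout). In Gpr115-KO Lama3 stood at 35.2 ± 8.35, Lamb3 at 38.5 ± 12.3, Plec at 28.0 ± 1.29 and Itgb6 at 19.4 ± 5.58. Lama3 overlapped Lamb3 and Plec there, as did Plec and Lamb3, and Lamb3 and Itgb6. The Lamb3 mean exceeded that of Lama3 through replicate 2 (49.3 against 38.7), while Lama3 was slightly above Lamb3 in replicate 1 (41.3 against 40.9) and in replicate 3 (25.7 against 25.1). At the bottom Lama1, at 0.671 ± 0.0582, came level with Lama5, at 0.661 ± 0.388, and their libraries overlapped.

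The fitted fold changes of the 9 genes followed their exonic length in part. The shortest 3, Col17a1 (6011 nt), Lamb3 (6612 nt) and Itgb4 (7015 nt), all had fold changes above 0, and of the longer 6 only Lama5 did. Longer genes had lower log2 fold changes over 12859 protein-coding genes as well (Spearman's rank correlation −0.29; the points are genes of the same 6 libraries). The longest 2572 of them, which held 5 of the 9, had a median of −0.14. With this trend removed from each library, Col17a1 stood at 0.48 (SE 0.18), Lamb3 at 0.33 (SE 0.24), Itgb4 at 0.23 (SE 0.22), Itga6 at −0.20 (SE 0.15), Itgb6 at −0.33 (SE 0.22), Lama3 at −0.19 (SE 0.21) and Lama5 at 0.37 (SE 0.50). No sign changed. Among these 7 genes none passed the threshold with the trend removed (edgeR adjusted p from 0.370 to 0.833).

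**Figure D4:**
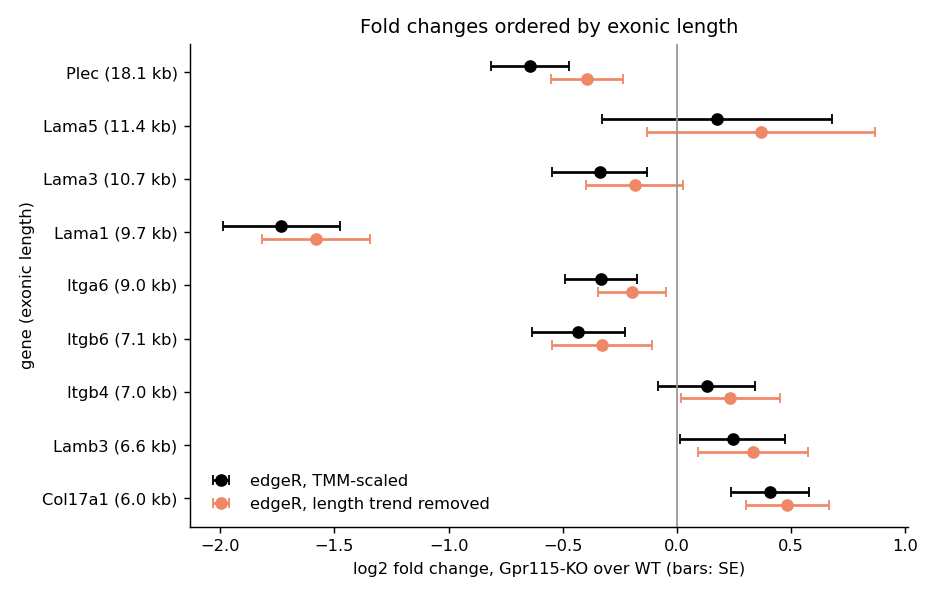
Log2 fold change of Gpr115-KO over WT with its SE (n = 3 per genotype) for the 9 genes, ordered by exonic length, from edgeR on TMM-scaled counts (black) and with the length trend of each library removed (orange). Lama1 lies far to the left in both (−1.73 and −1.58), Plec moves from −0.64 to −0.39, and the shortest 3 genes lie to the right of 0.

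The libraries that set the spread differed between genes. Gpr115-KO replicate 2 had the highest value of all 6 libraries for Lama5, Lamb3, Col17a1 and Itgb4, and the lowest for Lama1 and Plec. Gpr115-KO replicate 3 had the lowest value of all for Lama3, Lama5, Lamb3, Itgb4, Itga6 and Itgb6. The basal keratins, which attach to the hemidesmosome from inside, had the same extremes: Krt5 read 505 CPM in replicate 2 of Gpr115-KO and 164 CPM in replicate 3, against 225 to 275 CPM in WT, and Krt14 read 996 and 406 CPM against 723 to 796 CPM. The summed level of 6 general dental epithelium markers was likewise highest in Gpr115-KO replicate 2 (1773 CPM) and lowest in Gpr115-KO replicate 3 (833 CPM), with WT at 1207 to 1403 CPM; its part in these results was not tested. These extremes of the sum came from Perp, which read 945 and 295 CPM in these libraries against 382 to 614 CPM in WT, and, at the low end, also from Krt17, at 317 CPM against 514 to 554 CPM. Other markers of the list did not have them. Epcam was lowest in replicate 2 of Gpr115-KO (11.8 CPM) and highest in replicate 3 (17.9 CPM). Sp6, a transcription factor of dental epithelium, read 40.3, 55.8 and 76.0 CPM (WT) against 79.1, 101 and 88.5 CPM (Gpr115-KO) (log2 fold change 0.64, SE 0.22, edgeR adjusted p = 0.291). Cdh1, encoding the epithelial cadherin, read 112, 105 and 89.7 CPM (WT) against 75.0, 71.9 and 52.4 CPM (Gpr115-KO) (−0.62, SE 0.18, edgeR adjusted p = 0.245).

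In the same ordering of profiles over the 6 libraries, other genes outside the group were closer to each member than any other member was. Among members the closest were Lamb3 and Itgb4, with a root mean square difference of 0.196 log2 units; Itgb4 ranked 444 among the 11657 genes compared with Lamb3. Plec and Itga6 differed by 0.197, and Itgb6 and Lama3 by 0.233. The most similar gene of all was Tceal8 for Col17a1 (0.0309), Mrto4 for Itgb4 (0.0391), Prc1 for Itga6 (0.0391), BC024978 for Plec (0.0535), Mkks for Lamb3 (0.0662), Map3k3 for Lama3 (0.0771), Hectd4 for Itgb6 (0.0834) and the epithelial gene Perp for Lama5 (0.248). With 6 libraries and so many genes compared, close profiles are a description only.

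The genes around these members in the same adhesion structures gave no calls. Of 72 related genes 64 were tested, and 0 passed an edgeR adjusted p under 0.05; 8 had an unadjusted p under 0.05, all 8 lower, where 12.3% of all genes tested had one and 7.48% were lower with one. DESeq2 called 0 of them. Their median log2 fold change was −0.02, with 30 above 0 and 34 below, and 9 did not overlap between genotypes, 2 higher and 7 lower, where 17.5% of all genes tested did not overlap (8.55% higher and 8.99% lower). Among 6 other laminin chains the median was −0.29. Lama2, the alpha chain of muscle and nerve, had −0.91 (SE 0.34), at 9.40, 9.07 and 7.40 CPM (WT) against 2.27, 5.22 and 6.20 CPM (Gpr115-KO), while Lama4 (−0.03, SE 0.30), an endothelial chain, and Lamb2 (0.18, SE 0.30) overlapped. Lamc3 had −0.63 (SE 0.31) and also overlapped.

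Of the hemidesmosome partners, the tetraspanin Cd151 was higher in each Gpr115-KO library, at 51.8, 46.9 and 57.2 CPM (WT) against 68.9, 66.4 and 59.4 CPM (Gpr115-KO) (log2 fold change 0.32, SE 0.15, edgeR adjusted p = 0.415). The linker Dst, related to plectin, had −0.28 (SE 0.18). Among 16 other integrin subunits tested, of 23 listed, the median was 0.23. The smallest p-values were those of Itga11, a collagen receptor of fibroblasts (−0.74, SE 0.22), and Itga3, which binds the same epithelial laminin as Itga6 (−0.37, SE 0.15), both with separate libraries and edgeR adjusted p-values of 0.259 and 0.369. The common partner Itgb1 had 0.13 (SE 0.17).

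Among 18 other basement membrane genes the median was −0.05. Tinagl1, a secreted matrix protein, had −1.03 (SE 0.29, edgeR adjusted p = 0.239), at 8.95, 7.71 and 14.4 CPM (WT) against 4.20, 5.54 and 5.47 CPM (Gpr115-KO). It passed when no count filter was used, a setting that called 135 genes higher and 365 lower of 29163 tested. Col4a5, a collagen IV chain, had −1.08 (SE 0.43) and overlapped. The abundant Fras1, which encodes a protein that attaches epithelium to mesenchyme, did not overlap, at 614, 535 and 506 CPM (WT) against 305, 485 and 384 CPM (Gpr115-KO) (−0.50, SE 0.20, edgeR adjusted p = 0.356), and its exonic length is 17709 nt, close to that of Plec. Other laminin receptors had a median of −0.01, with the proteoglycan Sdc4 at −0.39 (SE 0.24) and Bcam, a receptor for Lama5, at 0.12 (SE 0.19). The 13 cytoplasmic partners of integrins had −0.05, with vinculin (Vcl) at −0.48 (SE 0.21) and alpha-actinin (Actn1) at −0.54 (SE 0.25). Of the secreted proteins of the ameloblast basal lamina, Amtn (0.04, SE 0.19) and Odam (−0.29, SE 0.49) overlapped between the genotypes.

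**Figure D5:**
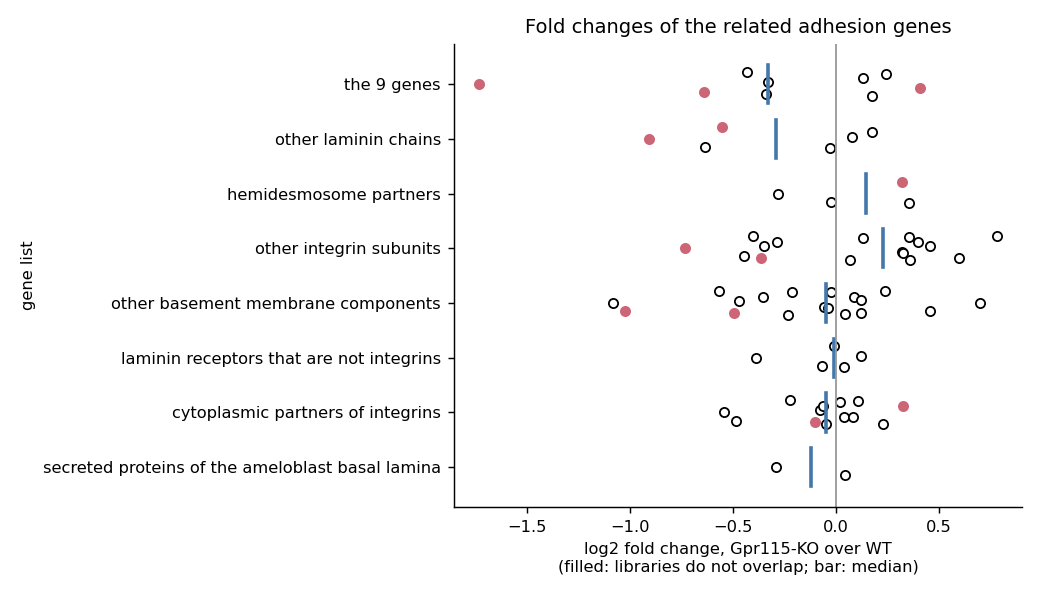
Log2 fold change of Gpr115-KO over WT for the 9 genes and for the tested genes of 7 related lists, 1 point per gene, filled where the 3 WT and 3 Gpr115-KO libraries do not overlap, with a bar at each list's median. Lama1, at −1.73, is the only called gene, and the list medians lie between −0.33 and 0.23.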

How the data were processed

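Tooth germ RNA of 3 WT and 3 Gpr115-KO mouse samples was sequenced from Nextera XT libraries as paired reads, per the labels' protocols. The submitters' processing notes list the aligner STAR 2.5.2a, the packages limma, edgeR and DESeq2, and build GRCm38 (mm10). What counted the reads, over which annotation, is not stated in the labels used. Deposited were the authors' raw counts (48709 gene rows and 15 transgene rows, left out here) and a normalized signal, CPM scaled by TMM per the file name, whose columns sum to 937403 to 1085499. With 1 factor per column, 100% of its values came out as whole reads (within 0.01), so a count test on them repeats that on the deposited counts.

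Counts were tested with edgeR 4.0.16 (R 4.3.3). The filter filterByExpr, with a minimum count of 10 and total of 15, left 16011 genes. They were scaled by TMM and fitted by robust quasi-likelihood with genotype as the only term, two-sided, with Benjamini-Hochberg adjustment and a threshold of 0.05. The SE was derived as the size of the log2 fold change over the root of its F statistic. Positions and exonic lengths (union of exons) are from GENCODE vM21 on GRCm38, promoters from RefSeq (GRCm38.p6), and shared stretches from blastn 2.17.0 (95% identity over at least 150 nt). The members and lists were chosen with earlier results of these data known. Named are the 9 members, Adgrf4, other laminin chains, the 2 genes of smallest p in each related list, the tested genes within 1000 kb of Lama1 and the most similar gene of each member. Profiles were compared over genes with a mean log2 CPM of at least 1, without predicted genes and pseudogenes. Other genes given for comparison, such as Itgb1, Krt5, Bcam and Cdh1, were picked after their values were seen. Alternatives were other scalings, filters and tests (DESeq2 1.42.0, limma 3.58.1), a replicate block, removal of the length trend and each library left out. The listed gene Scpppq1 was not analysed here, and 1 further listed item is not reported here. Libraries of 1 group differed by far more than sampling noise (chi-square of counts per degree of freedom at least 16.0).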

Additional observations from a re-analysis of the deposited data

How the results depend on the processing

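Of the 9 genes, 1 was called in the edgeR fit. That number was 0 at an adjusted p under 0.01, 0 with library totals alone and 0 with limma-voom, 2 with the DESeq2 Wald test (Lama1 and Plec), and 0 to 1 when 1 library was left out. The number of related adhesion genes called was 0, and 1 without a count filter (Tinagl1). That setting called 135 genes higher and 365 lower of 29163 tested, against 6 and 18 of 16011 in the main fit. Over 17 alternatives each, the fold changes of the 9 genes gave 153 values, of which 142 kept their direction and their side of the threshold; 7 values of Lama1 missed the threshold and 1 of Plec passed it. The sign turned for Lama5 without WT replicate 3 (−0.15) and without Gpr115-KO replicate 2 (−0.30, with 0.57 as the highest), and for Itgb4 without Gpr115-KO replicate 2 (−0.10, with 0.32 as the highest). The cause was not tested, and the alternatives that leave out a library have fewer samples. With the length trend removed 2 partner ratios of 5 did not overlap, against 4.

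Same-numbered libraries did not deviate together in every pair (correlations of deviations 0.27, 0.0344 and −0.0725 for numbers 1 to 3). Only replicate 1 correlated best with its own number. The labels do not say whether equal numbers mark paired samples. These correlations cannot decide it, because each deviation is taken from a mean of only 3 libraries. With the replicate block 1 of the 9 genes and 0 related genes were called, also with the length trend removed, while 72 genes were called over all genes tested, against 24 without the block. Scaling by library totals moved the median log2 fold change of all genes from 0.01 to 0.09. Lama5 had 32 to 110 counts in a library and coefficients of variation of 45.0% (WT) and 58.7% (Gpr115-KO); a limit set by depth was not tested.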
